A study of Mus musculus with 18 samples.

Results

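RNA sequencing counted transcripts in mouse bone marrow-derived macrophages (BMDMs) that had received no target cells, and the comparison described here is between 3 libraries labelled HDAC3 KO and 3 libraries labelled WT, both with no treatment. These 6 libraries are all of the untreated ones among the 18 of the series. The other 12 carry the same genotype labels after contact with apoptotic cells (ACs) or with living, non-apoptotic ones (NACs), both of them K562, a human leukaemia line. According to the study's methods the macrophages labelled HDAC3 KO came from M-HDAC3-/- mice, in which LysM-Cre removes a loxP-flanked exon of Hdac3 in myeloid cells, and those labelled WT came from HDAC3 f/f mice, which carry the floxed alleles. The control is therefore floxed and not a plain wild type. Whether the controls lack Cre is not given in the sources used here, nor are the age and sex of the donor mice. Marrow from femurs was grown into macrophages with L929-conditioned medium. The methods name 3 animals per group, while the labels call the libraries biological replicates. The names HDAC3-/- and HDAC3 f/f are used below for the libraries with those labels.

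HDAC3 is a class I histone deacetylase. It removes acetyl groups from histone tails as the catalytic subunit of the NCoR and SMRT corepressor complexes, which nuclear receptors and other sequence-specific factors bring to enhancers and promoters. In macrophages it is known both for restraining genes of alternative activation and for its part in interferon and inflammatory gene expression.

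The HDAC3 f/f libraries held 12781394 to 18026031 gene counts, and the HDAC3-/- libraries held 4704491, 26421267 and 25379897. HDAC3-/- replicate 1 stood apart. It was the shallowest, 86.5% of its counts fell on protein-coding genes against 95.6 to 98.4% in the other 5, and the genes Gm42418, Gm26917, Gm23935 and Lars2, whose reads commonly derive from ribosomal RNA, took 12.9% of its counts against 1.15 to 3.56% elsewhere. The genotype labels also went with base composition. The mean GC content of the counted transcripts was 52.1 to 52.7% in the HDAC3 f/f libraries and 54.0 to 55.0% in the HDAC3-/- libraries, without overlap (exact permutation test, 2-sided p = 0.1, the smallest that 3 against 3 libraries can give). Macrophage identity genes, 22 of which were tested, summed to 17150 to 28559 CPM (the count scaled by library size with TMM factors) in HDAC3 f/f and 18168 to 33168 CPM in HDAC3-/-.

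The targeted gene did not separate the groups. Hdac3 stood at 3.50, 46.7 and 29.7 CPM in HDAC3 f/f and at 35.1, 11.8 and 65.3 CPM in HDAC3-/-. The ranges overlapped, and the lowest library was a control (log2 fold change 0.49 ± 0.74 SE, edgeR quasi-likelihood test, adjusted p = 0.645). These are counts over the whole gene, so they do not show whether the floxed exon was present, and they provide no check of the labels. Lyz2, which encodes the lysozyme of macrophages and whose locus drives the Cre in the LysM-Cre strain, stood at 14298, 7070 and 4216 CPM in HDAC3 f/f and at 1339, 2642 and 2706 CPM in HDAC3-/-. All 3 HDAC3-/- libraries lay below all controls (log2 fold change -1.94 ± 0.55, adjusted p = 0.0425). Under the same labels Lyz2 stood at 0.80 with ACs and 1.20 with NACs, neither called, and its difference between the untreated and the NAC comparison was -3.39 (adjusted p = 0.00285). With GC content and transcript length taken out as an offset and without HDAC3-/- replicate 1 it was not called (-1.06, adjusted p = 0.132).

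Across the transcriptome more genes were lower than higher in HDAC3-/- macrophages. Of 12101 genes tested, 1404 (11.6%) differed at an adjusted p under 0.05, of which 368 (3.04%) were higher and 1036 (8.56%) lower. Each of them differed by more than 1 on the log2 scale. The groups did not overlap in 1382 of the 1404, against 40.5% of all genes tested. Individual libraries decided these counts. Without HDAC3 f/f replicate 1, 2 or 3 the test called 78, 0 and 0 genes, without HDAC3-/- replicate 2 or 3 it called 246 and 0, and without HDAC3-/- replicate 1, the library that stood apart, 5887. Scaling moved the balance of directions. With library totals alone 54 genes were higher and 2351 lower, and with DESeq2 size factors 749 were higher and 888 lower, while the median of all genes moved from 0.06 to -0.42 and 0.19. The 1404 genes kept their direction under both.

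The direction of a gene's difference followed the GC content of its transcript. Among the 2416 genes of the lowest GC quintile (27.5 to 44.6% GC) none was called higher and 681 were called lower. In the highest quintile (55.7 to 75.5% GC) 194 were higher and 1 was lower. The median log2 fold change climbed from -1.29 through -0.76, 0.10 and 0.76 to 0.93 over the 5 quintiles. Spearman's rho between fold change and GC content was 0.71 across 12080 genes of these 6 libraries. When GC content and transcript length were fitted as smooth terms in each library and taken out as an offset, which removes any GC-linked difference whatever its source, 0 genes were called by edgeR (2002 at an unadjusted p under 0.05) and the quintile medians ran from 0.03 to 0.14. Of the 1404 genes, 1394 kept their direction under the offset. With the offset and without HDAC3-/- replicate 1, a setting added after the data were seen, 1390 genes were called, and 342 of the 1404 (129 higher, 213 lower) were among them in the same direction. These 342 are named in what follows as also called with the offset, and single-gene values given with the offset are from that fit, while list medians with the offset are from the fit of all 6 libraries.

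**Figure D1:**
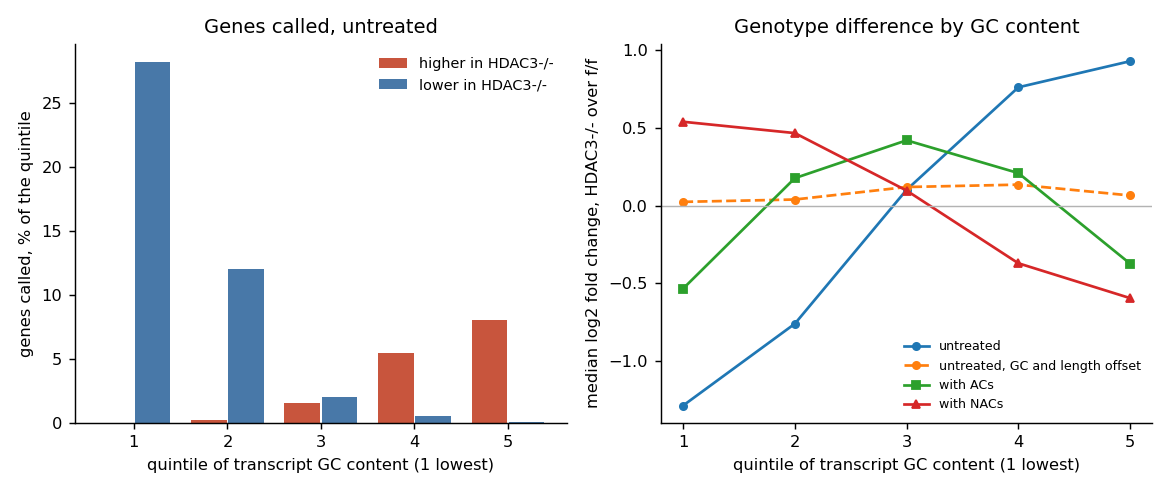
Left, genes called higher or lower in untreated HDAC3-/- libraries as a percentage of each quintile of transcript GC content (2416 genes each). Right, median log2 fold change of HDAC3-/- over HDAC3 f/f in each quintile, untreated, untreated with the GC and length offset, with ACs and with NACs; untreated medians run from -1.29 to 0.93 and those with NACs from 0.54 to -0.59.

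Among called genes whose groups did not overlap and whose mean was at least 10 CPM (968 genes), the 12 largest decreases ran from -3.68 to -2.97 on the log2 scale and were led by Cd86. Over all called genes the lowest value was -5.45. Cd86, on GRCm38 chromosome 16 (36603869 to 36666081), encodes the B7-2 ligand with which antigen-presenting cells co-stimulate T cells. It stood at 387, 182 and 258 CPM in HDAC3 f/f and at 25.5, 18.5 and 20.6 CPM in HDAC3-/-. The HDAC3-/- libraries were close to each other and far under every control. This was a 12.8-fold decrease (log2 fold change -3.68 ± 0.46, adjusted p = 0.0183), and Cd86 was also called with the offset (-2.56, adjusted p = 0.00169). Clec4e, the C-type lectin Mincle that recognises mycobacterial glycolipids and dead cells, stood at 385, 148 and 221 CPM against 33.3, 13.0 and 26.4 CPM (log2 fold change -3.38 ± 0.52). Its groups did not overlap either, but with the offset it reached -1.97 at an adjusted p of 0.0884.

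Snx2, a sorting nexin of endosome-to-Golgi retrieval, stood at 332, 170 and 267 CPM in HDAC3 f/f and 28.0, 45.7 and 16.8 CPM in HDAC3-/- (log2 fold change -3.09 ± 0.49), and was also called with the offset. Further genes of membrane traffic were Scfd1 (-3.24), a vesicle fusion protein of the endoplasmic reticulum to Golgi step, Golph3l (8.01-fold lower), a Golgi phosphoinositide-binding protein, and Sgk3 (-3.09), a kinase held on endosomes by its PX domain. All 3 were also called with the offset. Orc3, a subunit of the origin recognition complex, stood at 58.6, 35.7 and 54.7 CPM against 6.61, 6.43 and 3.44 CPM (-3.19). Pnpt1, the mitochondrial polynucleotide phosphorylase, was lower by 3.01 on the log2 scale and Il13ra1, a receptor chain for IL-13 and IL-4, also by 3.01, and both of these and Orc3 were also called with the offset. Mospd2 (-3.13), a membrane contact site protein, and Wfdc17 (-2.97), a small secreted protein of macrophages, were not. The pseudogene Tma7-ps completed the 12 largest decreases at -3.61. Its lowest control, at 3.09 CPM, lay next to its highest HDAC3-/- library, at 2.96 CPM.

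By the same rule the 12 largest increases ran from 2.07 to 3.51 on the log2 scale, while over all called genes the highest value was 4.29. Src, the non-receptor tyrosine kinase that acts downstream of integrins, stood at 3.78, 6.46 and 10.4 CPM in HDAC3 f/f and at 31.4, 31.0 and 31.7 CPM in HDAC3-/-. The 3 HDAC3-/- libraries were nearly equal (log2 fold change 2.19 ± 0.46, adjusted p = 0.0218), and Src was also called with the offset (1.16). Oas3, an interferon-induced synthetase of the 2-5A messenger that activates RNase L, stood at 14.3, 34.3 and 31.9 CPM against 34.4, 139 and 197 CPM (2.20 ± 0.59). HDAC3-/- replicate 1 lay at the level of HDAC3 f/f replicate 2, and the other 2 were well above. Oas3 was also called with the offset (1.73). Mgll, the monoacylglycerol lipase, stood at 4.40, 7.28 and 10.7 CPM against 77.9, 31.2 and 20.4 CPM (2.52 ± 0.56), and Pelp1, a nuclear receptor coregulator, at 25.2, 30.5 and 46.8 CPM against 264, 107 and 144 CPM (2.33 ± 0.47). In both genes HDAC3-/- replicate 1 was the highest, and neither was also called with the offset.

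In 3 of the 12 largest increases one library stood far above the rest. Mmp9, the gelatinase of migrating macrophages and osteoclasts, on chromosome 2 (164940780 to 164955850), stood at 50.9, 22.2 and 54.3 CPM in HDAC3 f/f and at 80.2, 528 and 64.8 CPM in HDAC3-/- (2.40 ± 0.72, adjusted p = 0.0482). Vsig8, an immunoglobulin-domain membrane protein, stood at 3.16, 0.434 and 3.63 CPM against 5.01, 72.2 and 4.18 CPM (3.51 ± 1.02). Itgb7, an integrin beta chain of gut-homing leukocytes, stood at 2.75, 7.44 and 13.3 CPM against 15.0, 74.8 and 21.6 CPM (2.25 ± 0.67). HDAC3-/- replicate 2 was the outstanding one each time, and none of these 3 was also called with the offset. The remaining members were Slco2b1 (2.12), an organic anion transporter, Ttyh2 (2.11), a Tweety-family membrane protein, Galns (2.09), the lysosomal sulfatase of keratan sulfate breakdown, Nomo1 (2.08), a protein of the endoplasmic reticulum membrane, and Usp36 (2.07), a nucleolar deubiquitinase. All but Usp36 were also called with the offset.

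**Figure D2:**
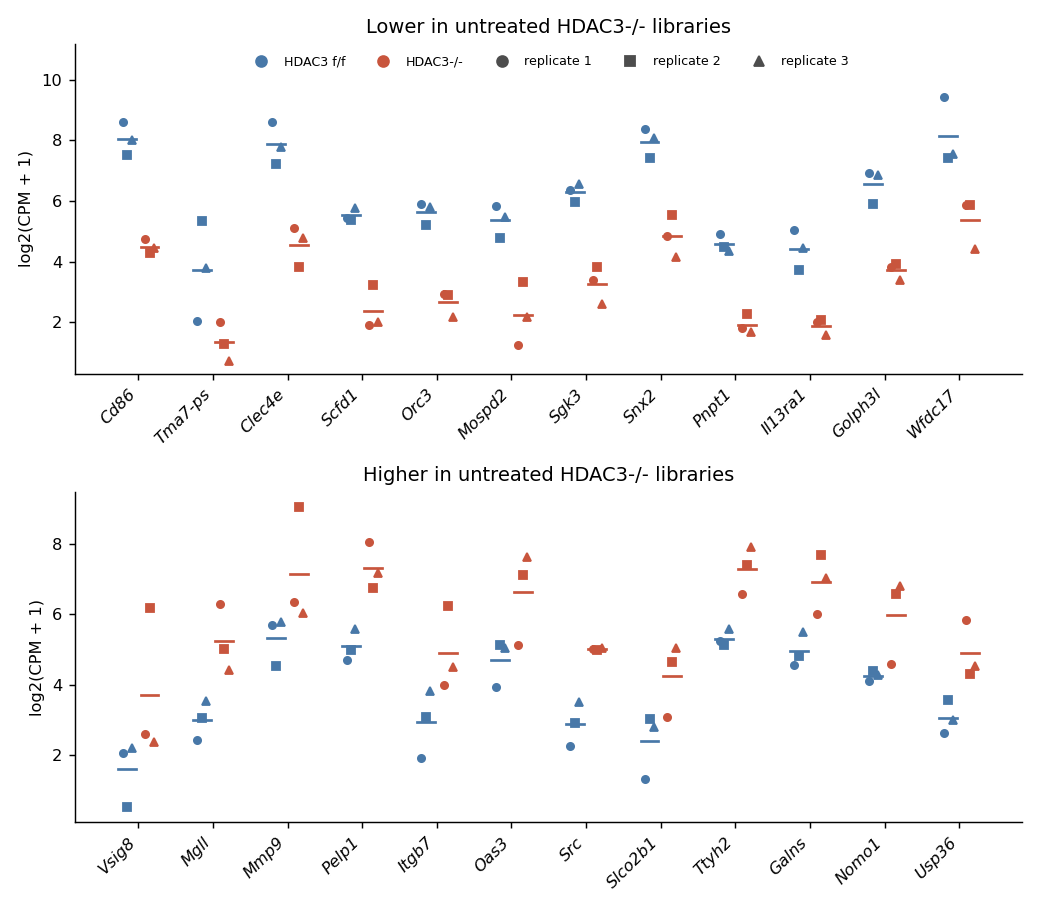
Expression as log2(CPM + 1) in each untreated library of the 12 genes with the largest decreases (top) and the largest increases (bottom) among called genes without overlap and with a mean of at least 10 CPM; symbols mark the replicate number, colours the genotype label and bars the mean of the 3 libraries. Cd86 sits at 18.5 to 25.5 CPM in HDAC3-/- against 182 to 387 CPM in HDAC3 f/f, while in Vsig8, Mmp9 and Itgb7 HDAC3-/- replicate 2 lies above the others.

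The promoters of the leading protein-coding genes are shown for orientation, since HDAC3 acts at regulatory DNA through factors that read such sequence. They are the first 2 genes of each direction with a matching entry in RefSeq (GRCm38.p6), each running from 250 bases before to 50 after the start of transcription, 5′ to 3′ on the gene's strand. Capitals mark matches, on either strand, to any of 6 motifs, namely the ETS site CCGGAAG, the PU.1 core GAGGAAG, the AP-1 site TGANTCA, the E-box CACGTG, the CCAAT box CCAAT and the TATA box TATAAA. The ETS and PU.1 letters share their last 5 bases but cannot match at the same place.
Clec4e: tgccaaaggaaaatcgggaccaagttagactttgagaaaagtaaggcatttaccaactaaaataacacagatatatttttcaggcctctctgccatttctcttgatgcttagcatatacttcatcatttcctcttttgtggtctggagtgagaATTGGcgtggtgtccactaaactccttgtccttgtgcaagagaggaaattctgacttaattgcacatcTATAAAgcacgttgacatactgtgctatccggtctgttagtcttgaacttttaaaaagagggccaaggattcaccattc
Scfd1: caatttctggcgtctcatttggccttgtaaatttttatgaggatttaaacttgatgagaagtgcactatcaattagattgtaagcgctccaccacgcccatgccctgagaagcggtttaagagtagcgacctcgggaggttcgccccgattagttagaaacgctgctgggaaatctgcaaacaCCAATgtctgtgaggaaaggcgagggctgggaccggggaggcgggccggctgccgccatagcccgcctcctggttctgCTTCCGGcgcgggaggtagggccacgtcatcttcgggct
Vsig8: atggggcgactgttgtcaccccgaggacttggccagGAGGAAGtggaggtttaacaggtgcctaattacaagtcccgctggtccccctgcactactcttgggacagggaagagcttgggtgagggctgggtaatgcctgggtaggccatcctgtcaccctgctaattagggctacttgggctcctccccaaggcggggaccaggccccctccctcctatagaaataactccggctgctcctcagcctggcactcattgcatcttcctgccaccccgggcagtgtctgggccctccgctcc
Mgll: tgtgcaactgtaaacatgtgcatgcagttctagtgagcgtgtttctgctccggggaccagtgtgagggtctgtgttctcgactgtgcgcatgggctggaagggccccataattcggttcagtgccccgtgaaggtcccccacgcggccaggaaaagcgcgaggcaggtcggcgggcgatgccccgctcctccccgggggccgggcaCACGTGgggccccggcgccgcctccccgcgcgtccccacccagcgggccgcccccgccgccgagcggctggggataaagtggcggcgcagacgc
The Clec4e window (chr6:123289822-123290121, minus strand) held a CCAAT box and a TATA box, the Scfd1 window (chr12:51377263-51377562, plus strand) a CCAAT box and an ETS site, the Vsig8 window (chr1:172555688-172555987, plus strand) a PU.1 core and the Mgll window (chr6:88724162-88724461, plus strand) an E-box. Over the 8367 tested genes with such a window most motifs were about as common near called genes as near all genes. The AP-1 site was more frequent near genes called higher, and these differences were not tested. The ETS site was in 20.5% of all windows, in 20.2% of the 272 windows of genes called higher and in 22.7% of the 758 of genes called lower. The PU.1 core was in 13.7, 14.0 and 14.4%, the AP-1 site in 4.53, 6.99 and 3.96%, the E-box in 10.7, 12.5 and 10.7%, the CCAAT box in 39.1, 40.1 and 39.1% and the TATA box in 6.51, 7.72 and 5.80%. The median GC content of the windows was 61.3% for all genes, 61.3% for those called higher and 60.7% for those called lower, so promoter GC did not separate the calls in the way transcript GC did (medians 55.9% in transcripts called higher, 43.6% in those called lower).

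Among 9 genes of the HDAC3 corepressor complex 2 were called (22.2%, against 11.6% of all genes tested), 1 in each direction. Gps2, a subunit of the NCoR and SMRT complexes, was higher (38.5, 40.2 and 44.2 CPM against 235, 104 and 99.9 CPM, log2 fold change 1.83, adjusted p = 0.030). Zbtb33, the methyl-CpG-binding repressor Kaiso that recruits NCoR, was lower (11.0, 9.29 and 10.1 CPM against 0.683, 2.21 and 1.13 CPM, log2 fold change -2.82). Neither was also called with the offset. Among 14 other histone deacetylases tested, Hdac6, the cytoplasmic tubulin deacetylase, was higher (1.97), and it was also called with the offset. Of 13 acetyltransferases and bromodomain readers only Kat6a was called, lower by 1.73 on the log2 scale.

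Toll-like receptors and their adaptors gave 4 decreases among 21 genes (19.0%, against 8.56% of all genes) and 0 increases, and the 4 were all receptors. Tlr4, the receptor for lipopolysaccharide, stood at 45.2, 23.6 and 25.1 CPM in HDAC3 f/f and at 3.42, 8.17 and 3.53 CPM in HDAC3-/- (-2.61 ± 0.50, adjusted p = 0.0192). The highest HDAC3-/- library lay far below the lowest control. Tlr7 (-2.29) and Tlr8 (-2.19), sensors of single-stranded RNA, and Tlr13 (-1.60), which recognises bacterial ribosomal RNA, were lower without overlap. The transcripts of all 4 lay in the lowest GC quintile, where 28.2% of genes were lower. None of the 4 was also called with the offset, where Tlr4 stood at -0.90. The median of the list was -0.07 and turned to 0.08 with DESeq2 size factors and 0.11 with the offset.

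Interferon response genes were called about as often as all genes. Of 35 tested, 3 were lower and Oas3 was higher (11.4%, against 11.6% of all genes). Ifi204 (-2.02), a nucleic acid-binding protein of the p200 family, stood at 80.7, 71.6 and 80.7 CPM against 15.0, 29.0 and 13.2 CPM. Ifih1 (-1.72), the double-stranded RNA sensor MDA5, and Ifit2 (-1.79) were also lower. The list's median was -0.27, against 0.06 for all genes tested, and 0.15 with the offset. Of 30 cytokines and chemokines 2 were called (6.67%). Il15 (-2.07), which sustains natural killer and memory T cells, and Il10 (-2.52), the anti-inflammatory cytokine, were lower. Il10 was scarce, at 1.41 to 5.22 CPM in HDAC3 f/f and 0.228 to 0.653 CPM in HDAC3-/-. Of 30 NF-kB and immediate early genes, also with 2 calls (6.67%), Junb (124, 117 and 97.8 CPM against 277, 268 and 426 CPM, log2 fold change 1.52) and Ier2 (1.43) were higher and none was lower. Both respond within minutes to growth and stress signals, and neither was also called with the offset.

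Genes of alternative activation gave 1 call in each direction among 20 tested (10.0%, against 11.6% of all genes). Il4ra, the IL-4 receptor alpha chain, was higher (74.2, 61.4 and 94.1 CPM against 141, 290 and 233 CPM, log2 fold change 1.53). Mrc1, the mannose receptor, was lower (91.7, 96.2 and 75.5 CPM against 22.3, 46.0 and 24.2 CPM, log2 fold change -1.50). With the offset and without HDAC3-/- replicate 1 Mrc1 turned to 0.21. Cebpa, a lineage-determining factor of myeloid cells, rose from 187, 186 and 224 CPM to 479, 818 and 866 CPM (1.86 ± 0.42, adjusted p = 0.0261) and was also called with the offset. In the list of macrophage lineage factors Elf4 (1.68) and Rxra (1.49) were also higher and Fli1 (-1.60) lower. Elf4 and Fli1 are ETS factors. Elf4 was also called with the offset, and Rxra was not. The number of factors tested is not given, so these calls are not set against the 11.6% of all genes.

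The efferocytosis list, 24 genes that the study chose with these samples in hand, had 0 calls in the untreated comparison (edgeR, adjusted p under 0.05), where 11.6% of all genes were called, and its median was 0.41, which turned to -0.06 with library totals. Tgm2, the transglutaminase that helps macrophages take up dead cells, stood at 318, 246 and 366 CPM in HDAC3 f/f and at 299, 1193 and 1642 CPM in HDAC3-/- (1.75, adjusted p = 0.054). Mfge8, the bridge between phosphatidylserine and integrins, stood at 144, 111 and 453 CPM against 454, 3215 and 347 CPM (5.67-fold higher, adjusted p = 0.056). In both genes the groups overlapped. Tgm2 was called by the DESeq2 Wald test (1.85, adjusted p = 0.0066). By edgeR it was called with DESeq2 size factors (adjusted p = 0.0449) and with all 18 libraries (adjusted p = 0.0199). Without HDAC3-/- replicate 1 edgeR also called it, both without the offset (2.13) and with it (1.07, adjusted p = 0.0457). Limma-voom and library totals did not call it. Mfge8 was called by edgeR with all 18 libraries (2.46, adjusted p = 0.0411). EdgeR also called it under a changed filter, either none or at least 10 counts in every library (smallest adjusted p = 0.0008). Without HDAC3-/- replicate 1 7 of the 24 were higher and 5 lower, against 19.3% and 27% of the 12714 genes tested in that fit.

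Of the 6 genes of that process followed singly 0 were called by edgeR at an adjusted p under 0.05, and 1, Axl, had an unadjusted p under 0.05 (0.0443). Axl was called by the DESeq2 Wald test (1.72, adjusted p = 0.0436) and, without HDAC3-/- replicate 1, by edgeR (2.07, adjusted p = 0.0453), as was Gas6 in that last fit (1.25, adjusted p = 0.0076). EdgeR also called Axl under a changed filter, either none or at least 10 counts in every library (smallest adjusted p = 0.0260). Cd5l, the secreted scavenger receptor-like protein AIM, stood at 15.0, 199.8 and 139 CPM in HDAC3 f/f and at 142, 218 and 312 CPM in HDAC3-/- (0.93 ± 0.67, adjusted p = 0.32). Axl, a receptor kinase for phosphatidylserine-bound Gas6, stood at 18.5, 70.4 and 55.9 CPM against 26.4, 95.2 and 320.4 CPM (1.61, adjusted p = 0.13). HDAC3-/- replicate 3 was the highest in both genes. Gas6 itself (0.87), Nr1h3 (0.41), which encodes the oxysterol receptor LXR alpha, Lrp1 (-0.45), an engulfment receptor, and the scavenger receptor Cd36 (-0.91) were not called, and the groups overlapped in each. Of 22 scavenger and phosphatidylserine receptors tested 2 were called (9.09%, against 11.6% of all genes). Stab2, which binds phosphatidylserine and hyaluronan, was higher (1.25 to 1.65 CPM against 2.28, 6.22 and 14.2 CPM, log2 fold change 2.48, also called with the offset). Msr1, the class A scavenger receptor, was lower (155, 119 and 135 CPM against 36.0, 41.9 and 15.3 CPM, log2 fold change -2.14).

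Antigen presentation genes were called at 13.3% (class II and co-stimulation) and 11.1% (class I and processing), near the 11.6% of all genes. Of 15 class II and co-stimulation genes, Cd86 was lower, as above, while H2-DMb1, which edits peptides on class II molecules, was higher (17.8, 18.8 and 39.0 CPM against 62.6, 87.6 and 89.0 CPM, log2 fold change 1.66). Both were also called with the offset. Of 18 class I and processing genes, the immunoproteasome subunit Psmb10 (1.58) and the peptide transporter subunit Tap2 (1.52) were higher and none was lower.

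Lysosomal genes had the most increases of the metabolic lists. Of 48 hydrolases and v-ATPase subunits 7 (14.6%) were higher and 4 lower, against 3.04% and 8.56% of all genes, with a median of 0.66 (0.18 with library totals, 0.45 with the offset). Gaa, the acid alpha-glucosidase, stood at 57.3, 76.6 and 97.0 CPM in HDAC3 f/f and 167, 300.02 and 345 CPM in HDAC3-/- (1.81 ± 0.43, adjusted p = 0.030). The proton pump subunits Atp6v0a1 (1.81) and Atp6ap1 (2.83-fold) and the lysosomal transcription factor Tfe3 (1.58) were higher without overlap. Gaa, Atp6v0a1 and Atp6ap1 were also called with the offset. Among the lower ones were Atp6v1c1 (-1.63), another pump subunit, the membrane protein Lamp2 (811, 396 and 668 CPM against 127, 250.1 and 79.4 CPM, -2.04) and the dipeptidyl peptidase Ctsc (-1.81). Without HDAC3-/- replicate 1 21 of the 48 were higher and 9 lower, where 19.3% and 27% of all genes were, and with the offset in addition 9 were higher and 1 lower, against 5.83% and 5.1% of the genes tested in that fit.

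Genes of energy and lipid metabolism were called at shares near the 11.6% of all genes, with 10.7% in glycolysis and hypoxia, 12.0% in cholesterol synthesis and 14.3% in LXR targets and efflux. In the glycolysis and hypoxia list, whose median of 0.96 was well above that of all genes and kept its sign under library totals (0.45) and the offset (0.33), Ldha, lactate dehydrogenase A, was higher among 28 genes (311, 281 and 407 CPM against 717, 1586 and 1083 CPM, log2 fold change 1.76, also called with the offset). Hif1a, the oxygen-regulated transcription factor, was lower (61.1, 71.0 and 47.2 CPM against 17.3, 11.4 and 11.4 CPM, -2.17), as was Bnip3 (-1.81), a mitophagy receptor. Of 25 cholesterol synthesis genes 3 were lower and 0 higher, namely Sc5d (-1.70), Hmgcs1 (-1.65) and Hsd17b7 (-2.04), all enzymes of the pathway. Of 21 genes of LXR targets and efflux, Srebf1 (1.38), the lipogenic transcription factor, and Rxra (1.49), the partner of LXR, were higher, while Smpdl3a (248, 173 and 268 CPM against 62.9, 66.6 and 39.0 CPM, -2.03), a phosphodiesterase, was lower and also called with the offset. Acadm (-1.82), the medium-chain acyl-CoA dehydrogenase, and Cat (-1.79), catalase, were lower and also called with the offset. They belong to the lists of fatty acid oxidation and of antioxidant genes. Calls in these lists went both ways. Ppard (1.47) of the former and Keap1 (1.75) of the latter were higher, and Nfe2l2 (-1.52) of the latter was lower. None of these was also called with the offset, and the shares of both lists called are not given.

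Endosomal sorting was the functional list with the largest share of decreases. Of 34 sorting nexins and retromer genes 8 (23.5%) were lower and 0 higher, against 8.56% of all genes, with a median of -0.28 (-0.30 with the offset). In the lowest and next GC quintiles 28.2 and 12.0% of genes were lower. Snx2 and Vps35 (44.2 and 40.2% GC) lay in the lowest quintile and Snx6 (46.6% GC) in the next. Beside Snx2 the retromer subunits Vps35 (238, 129 and 265 CPM against 35.3, 39.1 and 17.5 CPM, -2.79 ± 0.48) and Vps26a (124, 98.8 and 116 CPM against 21.9, 31.3 and 14.1 CPM, -2.33), which retrieve cargo from endosomes, and Snx6 (-2.01), which pairs with Snx2, were lower without overlap. Snx2, Vps35 and Snx6 were also called with the offset. Of 93 small GTPases 11 were lower and 2 higher (14.0% called, against 11.6% of all genes). Cdc42, which drives phagocytic cup formation, stood at 1354, 684 and 1113 CPM against 215, 309 and 250.2 CPM (-2.03), and Rab18 (-1.98), Rhot1 (-1.85) and Arl1 (-1.89) were lower too. None of these 4 was also called with the offset. Rab11b (1.45), of recycling endosomes, was higher and also called with the offset, and Rab3d (1.36) was higher.

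Translation genes were called in both directions. Of 84 cytosolic ribosomal proteins 4 were higher and 8 lower (14.3% called, against 11.6% of all genes). Rps7 stood at 3552, 1861 and 2665 CPM in HDAC3 f/f and at 889, 534 and 199.5 CPM in HDAC3-/- (-2.32 ± 0.56), Rpl11 at 3323, 1715 and 2257 CPM against 931, 454 and 341 CPM (-2.08), and Rpl14 was lower by 1.81 on the log2 scale. These were also called with the offset, under which Rpl11 reached -3.40. Rps29 (207, 155 and 287 CPM against 1238, 541 and 724 CPM, 1.95), Rpsa (1.49), Rpl8 (1.36) and Rps14 (1.60) were higher, and of these Rps29 was also called with the offset. Ribosomal protein genes have processed pseudogenes that can share reads, so single members are uncertain. With the offset and without HDAC3-/- replicate 1 26 of the 84 were lower and 8 higher, against 5.1% and 5.83% of all genes in that fit. Of 78 mitochondrial ribosomal proteins 7 were lower (8.97%, against 8.56% of all genes) and 0 higher, with Mrps22 (-2.37) and Mrpl40 (-1.73) also called with the offset.

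Of 64 translation factors 13 were lower and 5 higher (28.1% called, against 11.6% of all genes). Eif4a2 (245, 207 and 279 CPM against 72.4, 62.4 and 24.6 CPM, -2.20), a helicase of the cap-binding complex, Eif2s1 (-2.14), the initiation factor subunit that stress kinases phosphorylate, and Eif4e (-1.93), the cap-binding protein, were lower. Eef2 (910, 804 and 884 CPM against 1053, 4082 and 4210 CPM, 1.85), the translocase of elongation, and Eif3b (1.59) and Eif3f (1.55), subunits of the scaffold factor eIF3, were higher. Of these Eif4a2, Eef2 and Eif3f were also called with the offset. Of 20 tRNA synthetases 3 were called (15.0%). Aars (1.95) was higher and also called with the offset, whereas Dars (-2.17) and Rars (-1.42) were lower. With the offset and without HDAC3-/- replicate 1 Rars turned to 0.11. Of 39 splicing factors 4 were called (10.3%, against 11.6% of all genes), and the median of the list, -0.82, turned to 0.19 with the offset. Hnrnpk (360, 235 and 268 CPM against 75.2, 77.9 and 74.8 CPM, -1.92), Srsf3 (-1.92) and Sf3b1 (-1.84) were lower and Sf3b2 (1.54) was higher, the last of these also called with the offset.

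Zinc finger genes of the Zfp series, many of them KRAB repressors with AT-rich transcripts, held the largest number of decreases among the lists. Of 287 tested 40 (13.9%) were lower, against 8.56% of all genes and 28.2 and 12.0% of those in the lowest and next GC quintiles, and 2 were higher, with a median of -0.93 that kept its sign with library totals (-1.45), DESeq2 size factors (-0.78) and the offset (-0.18). The median GC content of their transcripts was 45.3%, against 50.3% for all genes tested. Zfp429 stood at 15.2, 9.72 and 14.0 CPM in HDAC3 f/f and 1.82, 1.42 and 0.915 CPM in HDAC3-/- (-3.28 ± 0.50), and Zfp277 at 42.5, 29.4 and 39.9 CPM against 5.24, 6.91 and 4.40 CPM (-2.75). Zfp748 (-3.09) and Zfp639 (-2.42) were lower as well, and all 4 were also called with the offset. Zfp703 (1.62) and Zfp592 (1.38) were the increases.

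Regulators of death, autophagy and the cell cycle were called at 17.1, 11.1 and 13.3%, against 11.6% of all genes. Of 35 cell death genes 5 were lower and 1 higher. Xiap (3.99-fold lower), an inhibitor of caspases, Mlkl (-1.53), the pore of necroptosis, and Casp4 (-2.17) were among the lower ones. Ripk3 (1.77), the kinase that activates Mlkl, was higher, with overlap between the groups. Of 27 autophagy genes the conjugation enzymes Atg5 (-1.92), Atg3 (-1.81) and Atg12 (-1.58) were lower and none was higher. Of 45 cell cycle genes Cdt1 (1.62), E2f2 (1.56) and Plk1 (1.92) were higher, while Cdkn2c (10.9, 10.9 and 11.5 CPM against 1.37, 3.90 and 2.70 CPM, 4.01-fold lower), an inhibitor of CDK4 and CDK6, Prim1 (-2.10) and Cdkn1b (-1.39) were lower. Mlkl, Atg5, Ripk3 and Cdkn2c were also called with the offset.

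Few genes of the respiratory chain were called. Of 81 nuclear genes of oxidative phosphorylation 1, Atp5f1 (-1.61), was lower (1.23% called, against 11.6% of all genes), and of 8 genes of the mitochondrial genome none was called (edgeR, adjusted p under 0.05). The mitochondrial share of counts was 0.496 to 0.621% in HDAC3 f/f and 0.272 to 0.434% in HDAC3-/-. The median of the 8 mitochondrial genes was -0.40 and turned to 1.34 with the offset, under which these AT-rich transcripts (median 36.4% GC) are adjusted strongly. Without HDAC3-/- replicate 1, 1 of the 8 was called higher and mt-Nd6 lower (-1.26), and with the offset in addition 7 were called higher, mt-Nd1 (3.48) and mt-Nd6 (1.38) among them, so the direction of mt-Nd6 turned with the offset. With library totals and all 6 libraries mt-Nd6 was called lower (-1.40, edgeR adjusted p = 0.0309). Of 40 clustered histone genes none was called by edgeR with TMM factors, while Hist1h2bc was called lower with library totals (-1.59, edgeR adjusted p = 0.0277).

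**Figure D3:**
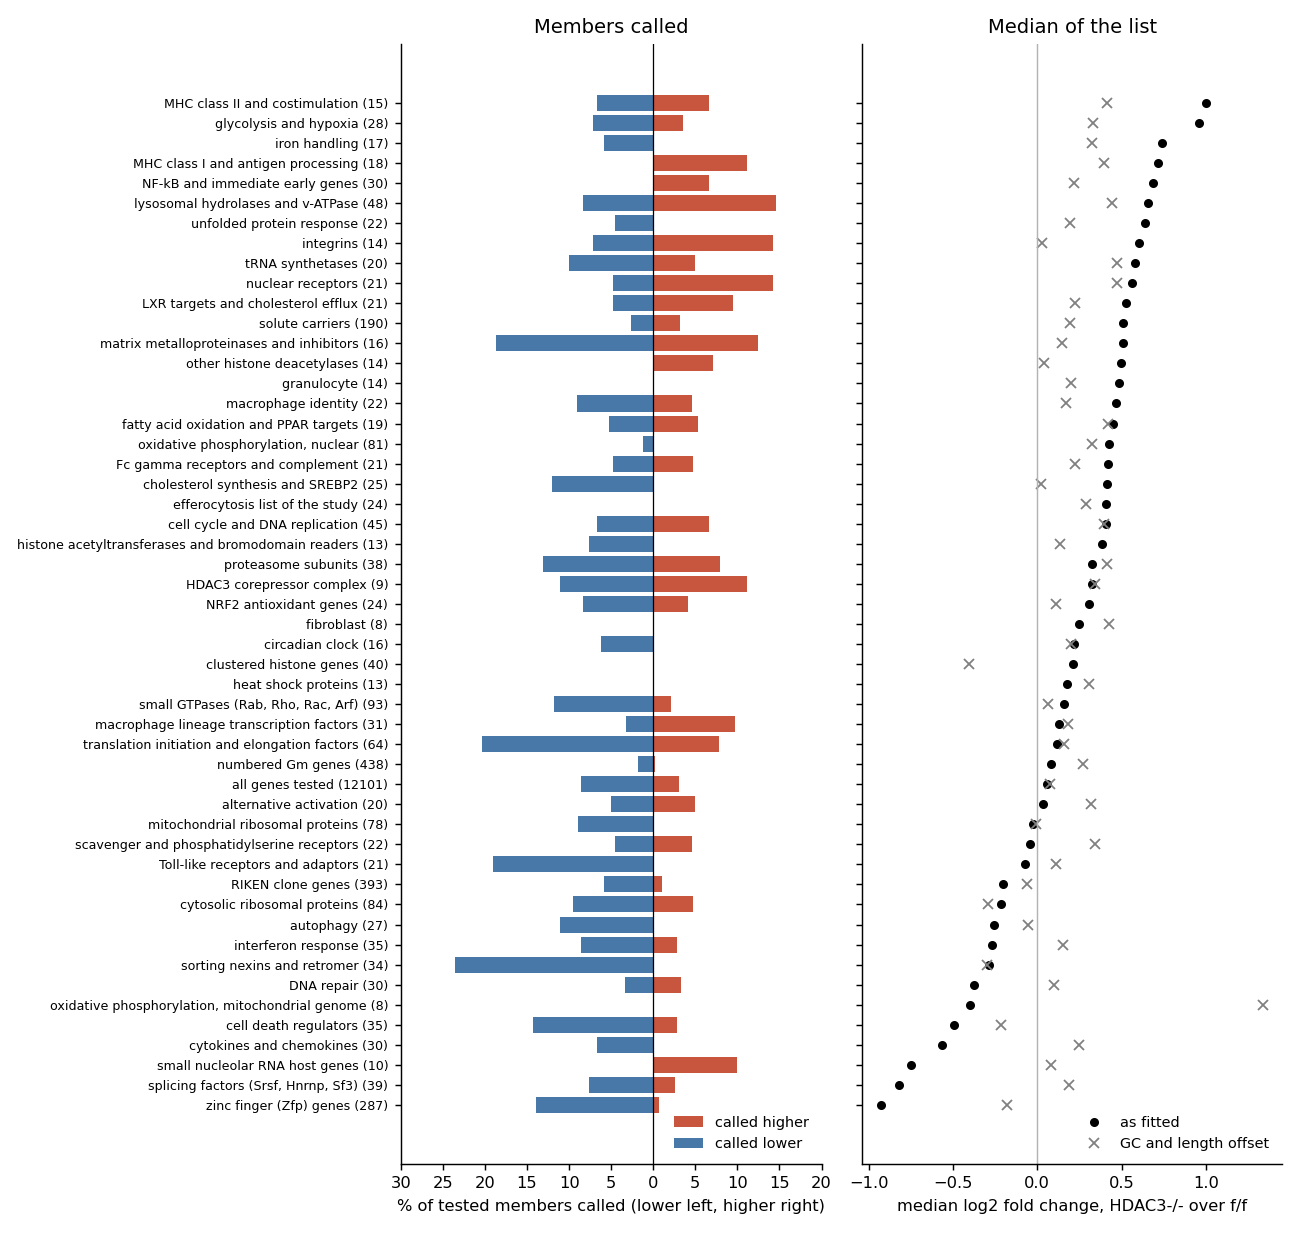
Gene lists with at least 8 tested members (number in brackets), ordered by median log2 fold change. Left, share of tested members called lower (to the left of 0) and higher (to the right). Right, list median as fitted (dots) and with the GC and length offset (crosses); the zinc finger list lies lowest at -0.93 and moves to -0.18 with the offset.

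Markers of other cell types that a marrow culture can hold were called in 3 lists of 7, and each list had few genes tested. Granulocyte markers (14 tested), fibroblast markers (8), B cell markers (4) and T and NK cell markers (2) had 0 calls by edgeR. The granulocyte sum was 273 to 1254 CPM in HDAC3 f/f and 466 to 1096 CPM in HDAC3-/-, and the fibroblast sum 7.00 to 111 CPM and 70.9 to 103 CPM. The B cell sum was 8.79 to 26.0 CPM and 20.9 to 31.9 CPM, and the T and NK cell sum 6.32 to 27.8 CPM and 19.1 to 96.4 CPM. Of 3 dendritic cell markers tested Itgax, which encodes CD11c and is also made by macrophages, was higher (4.26, 6.30 and 9.45 CPM against 8.20, 142 and 27.4 CPM, 3.15 ± 0.80, with overlap). Of 4 erythroid and megakaryocyte markers tested Itga2b, the integrin chain of platelets, was higher (3.00, adjusted p = 0.044), with raw counts of 4, 11 and 43 against 48, 253 and 26. The summed level of that list was 77.1 to 194 CPM in HDAC3 f/f and 68.1 to 113 CPM in HDAC3-/-. Of the 7 osteoclast markers tested, Mmp9 and Dcstamp (3.29), which mediates cell fusion, were higher (28.6%, against 3.04% of all genes), with raw counts for Dcstamp of 2, 5 and 15 against 10, 139 and 49, and Dcstamp was also called with the offset. Acp5 (2.39, edgeR adjusted p = 0.0545), Itgb3 (1.22), Ctsk (0.12), Nfatc1 (-0.08) and Atp6v0d2 (-0.85) were not called, and Oscar was at 0 in all 6 libraries. The osteoclast sum was 114 to 204 CPM in HDAC3 f/f and 142, 897 and 146 CPM in HDAC3-/-. HDAC3-/- replicate 2, the highest in Itgax, Itga2b, Mmp9, Dcstamp, Vsig8 and Itgb7, held the highest osteoclast sum, of which Mmp9 was 528 CPM, and the highest dendritic cell sum (149 CPM, against 14.1 and 30.7 CPM in the other HDAC3-/- libraries and 5.84 to 11.9 CPM in HDAC3 f/f), of which Itgax was 142 CPM. The dendritic cell sum thus rests largely on Itgax. In the osteoclast list Acp5 was also highest in that library, with raw counts of 209, 202 and 537 in HDAC3 f/f against 112, 4231 and 612. Of the other dendritic cell markers Batf3 had raw counts of 3, 9 and 18 against 9, 80 and 25, and Ccr7 of 0, 6 and 2 against 0, 19 and 3. Flt3, Clec9a and Cd209a had 0 counts in HDAC3-/- replicate 2, but at most 6 in any library. The part of such cells in those genes was not tested, and in bulk libraries more cells of a type and more RNA per cell cannot be told apart.

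The same genotype labels were also compared after exposure to target cells. Libraries of different treatments may come from the same animals, so these comparisons may not be independent of the untreated one. With ACs 461 of 12304 genes (3.75%) were called between HDAC3-/- and HDAC3 f/f, and with NACs 103 of 11923 (0.864%). Of the genes called higher or lower in untreated macrophages and tested with ACs, 288 of 367 and 862 of 1023 had the same sign there, 82.7% together against 54.0% of all 11793 genes tested in both. Of these genes 82 were also called with ACs in the same direction and 0 in the opposite one. Cd86 was among them (-2.49 with ACs), as were Clec4e (-2.87), Snx2 (-2.41), Sgk3 (-2.10) and Scfd1 (-1.78). The difference between the untreated and the AC comparison, tested as an interaction, was called in 0 of 13225 genes by edgeR (3187 at an unadjusted p under 0.05, 1225 by DESeq2), and leaving out untreated HDAC3 f/f replicate 3 or HDAC3-/- replicate 3 with ACs raised this to 471 and 1100.

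With NACs the directions were opposite. Of the same calls 1 of 366 higher and 11 of 1030 lower genes kept their sign, 0.86% against 17.6% of all 11672 genes tested in both. Their median log2 fold change was 1.65 in untreated macrophages and -0.78 with NACs for the genes called higher, and -1.86 and 0.83 for those called lower. The interaction was called in 4530 of 13005 genes (34.8%), among them 1388 of the 1404 genes called in untreated macrophages. For Cd86 the log2 fold change was -3.68 untreated and 1.38 with NACs, and the interaction was -5.27 (adjusted p = 0.00064). The GC content of the libraries crossed over in the same way, being 53.3 to 54.5% in HDAC3 f/f and 52.5 to 53.1% in HDAC3-/- with NACs. With the GC and length offset 1168 interactions were called.

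**Figure D4:**
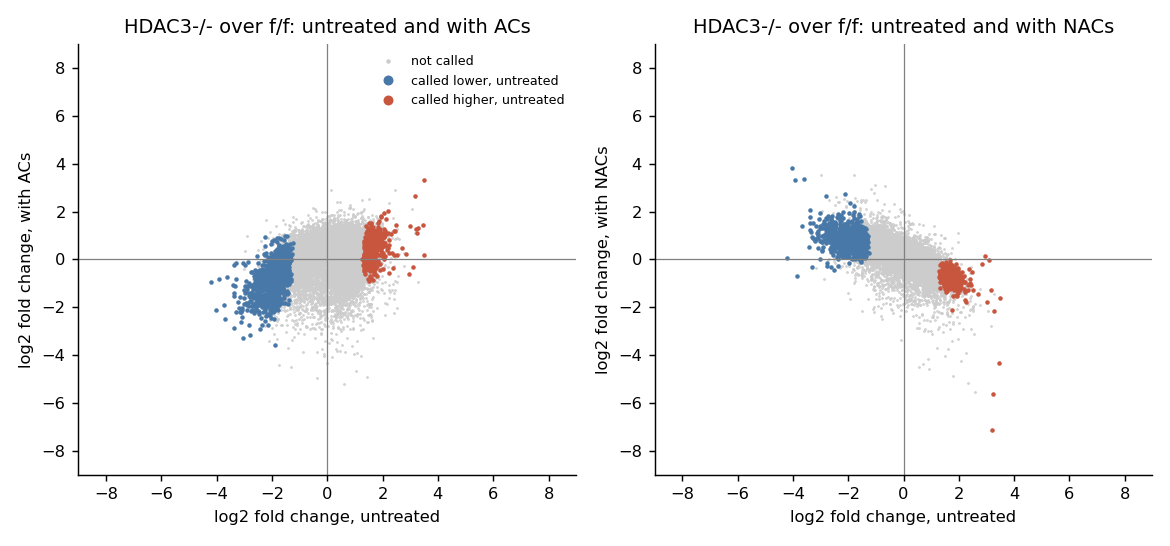
Log2 fold change of HDAC3-/- over HDAC3 f/f for each gene in untreated macrophages (horizontal) against that with ACs (left) or NACs (right); colours mark genes called higher or lower in untreated macrophages. With ACs 1150 of 1390 called genes keep their sign, with NACs 12 of 1396.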

How the data were processed

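Per the labels, total RNA of BMDMs was made into libraries with the NEBNext Ultra II RNA kit. Per the submitters' processing notes, reads were trimmed with Trimmomatic 0.36, aligned with STAR 2.5.2b to GRCm38 and counted with featureCounts of Subread 1.5.2; the annotation release and strand setting are not given in the sources used here. The authors deposited raw counts per gene for 49315 genes in each library, and 49056 identifiers matched GENCODE M21, which gave symbols, GC content and length. Antisense and overlapping genes may therefore share counts.

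The 6 untreated libraries were fitted with edgeR 4.0.16 (TMM scaling, filterByExpr with a minimum count of 10 and total of 15, robust quasi-likelihood test, Benjamini-Hochberg adjustment over all 12101 genes tested, threshold 0.05). The standard error is the absolute log2 fold change divided by the square root of F. Levels are CPM with TMM factors. Interactions used the untreated and AC or NAC libraries together. The scripts were tested on simulated data. The alternatives were DESeq2 1.42.0, limma 3.58.1, other scalings and filters, all 18 libraries, a replicate block, an offset from smooth terms (mgcv 1.9.3) of GC content and length, and each library left out. The offset without HDAC3-/- replicate 1 was added after the data were seen. Intervals and p-values measure only the spread between these libraries. By a chosen rule, genes with fewer than 3 counts per library in both groups get no fold.

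Genes named are Hdac3 and Lyz2, 6 efferocytosis genes, the 12 largest changes per direction among calls with groups that did not overlap and a mean of at least 10 CPM (968 genes), and up to 4 calls per direction with the smallest p in each gene list, or the 2 smallest where none was called. Some genes that this rule names are not reported here. Dcstamp was chosen after its values were seen. The comparison, lists and rules were chosen with earlier results of these data known. The replicate numbers did not pair the untreated libraries of the 2 genotype labels. Libraries of different treatments may share animals, which was not tested. The interaction fits treated them as independent, save those with a replicate block.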

Additional observations from a re-analysis of the deposited data

Results flagged for a closer look

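The genotype difference itself differed between untreated macrophages and those given NACs, by an interaction test, in 4530 genes. Among the leading genes of the untreated comparison the untreated difference minus that with NACs was 3.62 on the log2 scale for Mgll, 3.42 for Pelp1, -5.27 for Cd86, -7.26 for Tma7-ps, -5.33 for Clec4e and -4.35 for Scfd1. The GC content of the libraries was higher in HDAC3-/- than in HDAC3 f/f when untreated and lower with NACs, and with a GC and length offset 1168 interactions were called. No test for single outlying values was run in groups of 3 libraries. By its depth and composition HDAC3-/- replicate 1 stood apart from the other 5.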

How the results depend on the processing

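The 1404 genes called in untreated macrophages (368 higher, 1036 lower) became 2405 (54, 2351) with library totals alone, 2276 (680, 1596) with limma-voom, 3314 (1796, 1518) with the Wald test of DESeq2, 3308 (1709, 1599) with all 18 libraries in one fit, 1637 (749, 888) with DESeq2 size factors, 0 (0, 0) with the GC and length offset, and 1390 (741, 649) with that offset and without HDAC3-/- replicate 1. Without filter 1417 genes were called, and 1670 when every library had to hold 10 counts. Without both libraries numbered 1 there were 4374 (1657, 2717). Leaving out each library in turn gave 0 to 5887 genes (0 to 2451 higher, 0 to 3436 lower). The genotype by AC interaction, 0 genes, became 1225 with DESeq2, 140 without filter and 0 to 1100 with libraries left out. The NAC interaction, 4530 genes, became 1168 with the offset and 3043 to 6297 with libraries left out.

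Same-numbered libraries of the 2 groups did not deviate together (correlations -0.010, -0.118 and -0.009). A replicate block called 1336 genes (267 higher, 1069 lower), and 0 when combined with the offset; the interactions with the block were 0 (ACs) and 4280 (NACs), and with the block and offset 0 and 799.

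Of the 170 named genes called, 165 stayed called with DESeq2 size factors, 115 with library totals, 133 with the block, 0 with the offset, and 60 with the offset and without HDAC3-/- replicate 1. Signs turned as follows. Hdac3 went to -0.041 with library totals and ranged from -0.22 to 1.17 with libraries left out, below 0 without HDAC3-/- replicate 3 or HDAC3 f/f replicate 1 (-0.049). Gas6 went to -0.12 with the offset, -0.45 with block and offset and ranged from -0.21 (without HDAC3-/- replicate 3) to 1.25 with libraries left out. Nr1h3 went to -0.045 with library totals, -0.33 with the offset, -0.30 with block and offset and -0.57 with the offset and without HDAC3-/- replicate 1. Cd36 went to 0.42, 0.014 and 0.82 under the latter 3, mt-Nd6 to 0.89, 0.58 and 1.38, and Hist1h2bc to 0.12 and 0.46 with the offset with all libraries and without the first HDAC3-/- one. In that last fit Mrc1 went to 0.21, Fbxl5 to 0.14, Psmd14 to 0.062 and Rars to 0.11. Of 55 list medians, 22 of the 40 positive ones turned negative with library totals, 3 negative ones turned positive with DESeq2 size factors, and with the offset 8 turned positive and 1 negative. The shallowest library, at 4704491 counts, limits genes of a few CPM most.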
